A study of Mus musculus with 6 samples.

Results

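The genes of WNT signalling at the cell surface and its readout were examined in bulk RNA-Seq of mouse gastrocnemius/plantaris (GP) muscle. The set holds every listed gene whose symbol begins with Wnt, Fzd, Sfrp or Dkk followed by a digit, together with Axin2, Lef1, Tcf7, Tcf7l2, Ctnnb1, Lgr5, Rspo3, Lrp5, Lrp6 and Wif1, which gave 47 of the 24421 genes in the count tables. By role these are 19 ligands, 10 Frizzled receptors, 2 LRP co-receptors, 1 LGR receptor and 1 R-spondin, 9 secreted antagonists, 4 nuclear effectors and 1 feedback target. The choice of genes used symbols and not measured values.

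WNT proteins are secreted ligands that bind Frizzled receptors on nearby cells. When LRP5 or LRP6 joins the complex, β-catenin (Ctnnb1) escapes degradation and works with the TCF/LEF factors to switch on target genes such as Axin2, which in turn promotes β-catenin degradation. SFRP and WIF proteins bind the ligands, DKK1, DKK2 and DKK4 block the LRP co-receptors, and R-spondins acting through LGR receptors keep Frizzled proteins at the membrane. In skeletal muscle these genes are known from satellite cells, the stem cells of the fibre, from the neuromuscular junction and from connective tissue cells.

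The study addressed what loss of Net39, a protein of the nuclear envelope, does to adult muscle. Male mice, all homozygous for a floxed Net39 allele (fl/fl), were compared with and without the HSACreERT2 transgene, whose promoter drives a tamoxifen-inducible Cre in skeletal muscle fibres and not in satellite cells or heart. The labels give the strain background as B6C3F1, and per the methods the founders, made from such zygotes, were bred to C57BL/6N and their offspring to the Cre line. All mice were 5 months of age, 3 months after tamoxifen, and each group has 3 mice with 1 library each, called Ctrl (without Cre) and cKO here, after their labels. Deposited counts summed to 33860001 to 38201728 per library in Ctrl and 39191239 to 48839910 in cKO.

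The targeted gene went against the labels. Net39, listed as Ppapdc3, was counted 310, 321 and 217 times in libraries Ctrl 1, 2 and 3 and 5365, 4340 and 6080 times in cKO 1, 2 and 3, so its counts were low where the label says intact and high where it says deleted. The log2 fold change, labelled cKO over labelled Ctrl, was 4.22 ± 0.17 (SE, n = 3 per group, adjusted p = 0.000161, edgeR's quasi-likelihood test with Benjamini-Hochberg adjustment). The allele floxes the first exon, whereas the counts cover the whole gene and do not separate exons. The labels may be exchanged, which was not tested. Groups were kept as labelled, and each direction below is that of the labelled libraries. Levels are CPM, the usual unit of counts relative to the library total, here after scaling by TMM factors, or CPM per kb of exon where genes are compared with each other.

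Muscle fibre genes also differed between the labelled groups. All 7 listed markers of fast type IIb fibres passed as higher with the cKO label, with a summed level of 108046 to 145659 CPM in cKO and 37028 to 69473 CPM in Ctrl. The 8 slow-fibre markers went the other way, with sums of 446 to 3872 CPM in cKO and 8478 to 14593 CPM in Ctrl and 3 of 8 past the test in edgeR (7 of 8 in DESeq2). Of the markers of endothelium, adipocytes and Schwann cells, 0 of 6, 0 of 4 and 0 of 5 passed in edgeR, with 1, 0 and 2 at an unadjusted p under 0.05 and 0, 0 and 1 called by DESeq2. Whole muscle was sequenced, so fewer cells of a type and less RNA per cell cannot be told apart.

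Of the 47 genes, 34 passed the filter on low counts and were tested, and 4 of these 34 had an adjusted p under 0.05. Wnt4, Wnt9a and Lrp6 were higher in libraries labelled cKO and Sfrp4 was higher in those labelled Ctrl. Among all 14180 genes tested, 12.6% were called higher in libraries labelled cKO, 11.8% higher in those labelled Ctrl and 24.4% in either direction, whereas 11.8% of the WNT genes tested were called. With a fold change over 2 as well, the calls were Wnt4 and Sfrp4, beside 2.13% of all genes in the direction of Wnt4 and 3.92% in that of Sfrp4. The groups did not overlap for 12 WNT genes, or 35.3% of those tested, beside 43.9% of all genes. The fitted log2 fold changes leaned towards Ctrl, with 21 genes below 0 and 13 above it and a median of -0.26, where all genes tested had a median of -0.015.

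These counts depended on the scaling and on single libraries. The shares of all genes above belong to the edgeR fit with TMM scaling on all 6 libraries. They were not counted for the settings below, so whether the WNT genes shifted more than other genes was not tested. Scaling by total counts moved the median of all genes to -0.269, and 9 WNT genes were then called higher in libraries labelled Ctrl and 1, Wnt4, in those labelled cKO. DESeq2's Wald test called 4 and 5. Without the library labelled cKO 2 the calls were 7 and 3, the 7 being Axin2, Dkk3, Fzd1, Fzd10, Fzd2, Fzd9 and Sfrp4. Without Ctrl 3 they were 2 and 5, with Fzd5, Fzd7 and Sfrp2 added. Wnt4 was the single gene called higher in libraries labelled cKO without Ctrl 2, without cKO 1 or without cKO 3, and Wnt4 and Lrp6 were called without Ctrl 1. Without cKO 1, Wnt5b joined Sfrp4 among those higher in libraries labelled Ctrl.

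**Figure D1:**
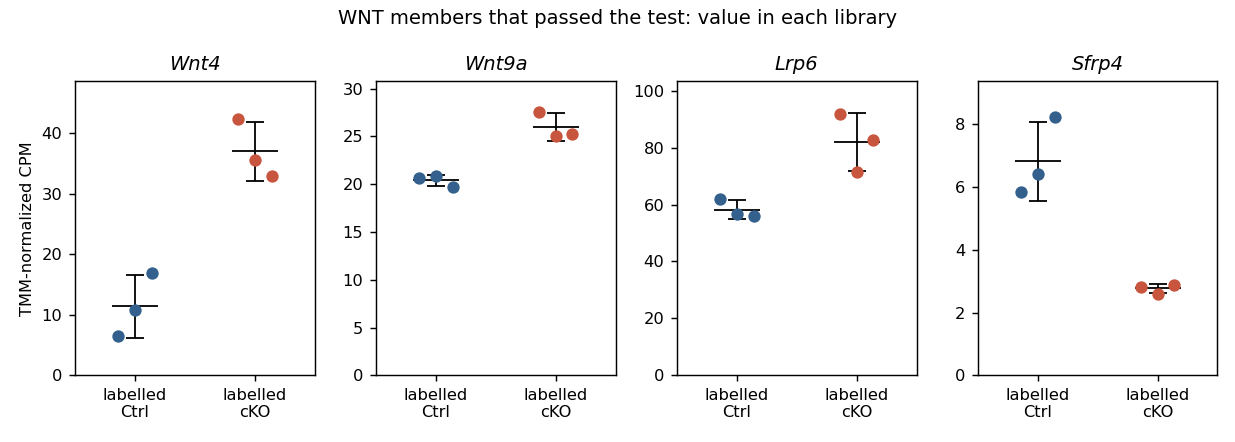
TMM-normalized CPM (linear axes from 0) of the 4 WNT genes with an adjusted p under 0.05. Each point is 1 library, and bars give the mean and SD of the 3 libraries of a labelled group. Wnt4, Wnt9a and Lrp6 lie higher in all 3 libraries labelled cKO than in any labelled Ctrl, and Sfrp4 lies lower.

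Among the ligands, Wnt4 had the largest difference that passed the test. Wnt4, a ligand made by muscle fibres that is known to keep satellite cells quiescent, lies on chromosome 4 of GRCm38 (mm10) from 137277489 to 137299726, on the plus strand. It was measured at 6.54, 10.8 and 17.0 CPM in libraries labelled Ctrl and at 42.4, 35.6 and 32.9 CPM in those labelled cKO. The lowest library labelled cKO was above the highest labelled Ctrl, although the 3 Ctrl libraries spanned 2.60-fold among themselves. The difference was 3.23-fold (log2 fold change 1.69 ± 0.31, SE, n = 3 per group, adjusted p = 0.0106, edgeR's quasi-likelihood test). Wnt4 kept its call in 13 of 13 alternative settings, with log2 fold changes of 1.41 to 2.09 and adjusted p values up to 0.0441. In the libraries labelled Ctrl, Wnt4 had the same order as the summed type IIb markers, which were 37028, 53371 and 69473 CPM. It did not in those labelled cKO, at 145659, 108046 and 133455 CPM. The sums of immune (48.4, 55.8 and 61.4 CPM), tenocyte (333, 344 and 361 CPM) and neuromuscular junction markers (66.5, 78.8 and 79.3 CPM) also rose from Ctrl 1 to Ctrl 3. The part of any of these markers in the Wnt4 difference was not tested.

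Wnt9a, a ligand known from joint formation, was the ligand with the highest level per length over the 6 libraries, at a mean of 6.97 CPM per kb. In libraries labelled cKO alone Wnt4 was higher, at a mean of 8.81 CPM per kb against 7.80. Wnt9a lies on chromosome 11 from 59306928 to 59333552, on the plus strand. It stood at 20.6, 20.9 and 19.7 CPM in libraries labelled Ctrl and 27.6, 25.0 and 25.3 CPM in those labelled cKO. Both groups were tight and did not overlap, and the difference was small, at 1.27-fold (log2 fold change 0.35 ± 0.08, SE, n = 3 per group, adjusted p = 0.0204, edgeR's quasi-likelihood test). The call was lost with total counts (log2 fold change 0.09, adjusted p = 0.42, edgeR) and in 4 of the 6 fits that left out a library, Ctrl 1, Ctrl 2, cKO 1 or cKO 3, where edgeR's adjusted p was 0.0551 to 0.0778.

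The promoter windows of these ligands are shown because Wnt4 and Wnt9a moved in the same direction, with Wnt5b beside them because its window holds a TCF/LEF core. Each runs from 250 bases before to 50 bases after a RefSeq start (GRCm38.p6), 5′ to 3′ on the strand of the gene. Capitals mark a match to CTTTGAT, the TCF/LEF core, or to CAGCTG, the E-box bound by myogenic factors, searched on both strands. Wnt4 spans chr4:137277385-137277684 (plus strand), Wnt9a chr11:59306680-59306979 (plus) and Wnt5b, for 1 of its 3 starts, chr6:119449337-119449636 (minus).
Wnt4: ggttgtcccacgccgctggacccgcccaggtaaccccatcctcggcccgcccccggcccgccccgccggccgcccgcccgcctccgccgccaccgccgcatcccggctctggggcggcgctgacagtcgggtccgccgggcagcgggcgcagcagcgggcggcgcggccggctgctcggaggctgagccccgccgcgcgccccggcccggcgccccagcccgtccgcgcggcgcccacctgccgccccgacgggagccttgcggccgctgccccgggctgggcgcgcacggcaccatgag
Wnt9a: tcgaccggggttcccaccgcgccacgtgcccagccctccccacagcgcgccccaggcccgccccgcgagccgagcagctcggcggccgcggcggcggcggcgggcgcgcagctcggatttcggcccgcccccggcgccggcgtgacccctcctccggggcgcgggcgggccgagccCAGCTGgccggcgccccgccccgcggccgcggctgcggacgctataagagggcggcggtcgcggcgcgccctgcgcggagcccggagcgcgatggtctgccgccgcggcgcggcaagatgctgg
Wnt5b: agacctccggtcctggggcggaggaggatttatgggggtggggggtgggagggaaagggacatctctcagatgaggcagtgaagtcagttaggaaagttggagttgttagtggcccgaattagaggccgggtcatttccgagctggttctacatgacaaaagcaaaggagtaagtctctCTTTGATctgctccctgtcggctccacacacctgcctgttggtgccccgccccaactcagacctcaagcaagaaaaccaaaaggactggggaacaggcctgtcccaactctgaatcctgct
Wnt4 had no match to either motif in this window, Wnt9a had 1 E-box starting 74 bases before the start, and Wnt5b had 1 TCF/LEF core starting 71 bases before it. The windows of Wnt4 and Wnt9a were 84.3% and 83.3% G or C, and that of Wnt5b 55.0%. The TCF/LEF core stood in 3.73% of 32851 RefSeq windows and in 2 of the 40 windows found for 31 WNT genes, those of Wnt5b and Wnt11. The E-box stood in 16.3% of all windows and in 4 of the 40, those of Fzd10, Lef1, Tcf7 and Wnt9a. A match describes the letters only and is not a measured binding site. Sfrp4 and Lrp6 had no entry.

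The other 7 ligands tested did not pass in edgeR, while DESeq2's Wald test called Wnt5b and Wnt16. Wnt5b and Wnt10b did not overlap between groups, both being higher in all libraries labelled Ctrl. Wnt5b, which mostly signals without β-catenin, stood at 4.54, 4.66 and 5.11 CPM in Ctrl and 3.67, 2.86 and 1.77 CPM in cKO (log2 fold change -0.79 ± 0.25, SE, n = 3 per group, adjusted p = 0.0602, edgeR). Without cKO 1 it was at -1.06 with an edgeR adjusted p of 0.0402. Wnt10b, a ligand known to hold back fat cell formation, had a log2 fold change of -0.70 and an edgeR adjusted p of 0.0913. Wnt16, a ligand known from bone, had the largest fitted log2 fold change of all 34 genes, 1.74 ± 0.76 (SE), and an adjusted p of 0.138 by edgeR. It had most of its counts in cKO 2. Values were 1.12, 0.82 and 0.465 CPM in Ctrl and 1.66, 5.79 and 0.659 CPM in cKO, and without cKO 2 its log2 fold change was 0.49. Wnt11, Wnt5a, Wnt2b and Wnt6 overlapped between groups, with log2 fold changes of 0.24, 0.08, -0.28 and -0.52. Summed over the 19 ligands, the level per length was 15.2, 16.1 and 17.4 CPM per kb in libraries labelled Ctrl and 24.9, 24.0 and 21.2 CPM per kb in those labelled cKO, with Wnt9a giving 35.2% of the mean sum. Wnt4 differed most within it, at a mean of 2.73 CPM per kb in Ctrl and 8.81 in cKO, where Wnt9a was at 6.13 and 7.80.

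Of the ligands, 10 were under the filter, so little can be said of them. They were Wnt1, Wnt2, Wnt3, Wnt3a, Wnt7a, Wnt7b, Wnt8a, Wnt8b, Wnt9b and Wnt10a, and with Lgr5, Dkk1 and Dkk4 they made up the 13 genes not tested. Wnt3a, Wnt7a and Wnt8a had 0 counts in all 6 libraries, and Wnt2 reached the highest count, 23. A count of 0 allows up to 3 counts, which is 0.0682 to 0.0846 CPM per library, for counting error only. Wnt7a, known to drive satellite cell expansion through Fzd7, was therefore not detectable at this depth.

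**Figure D2:**
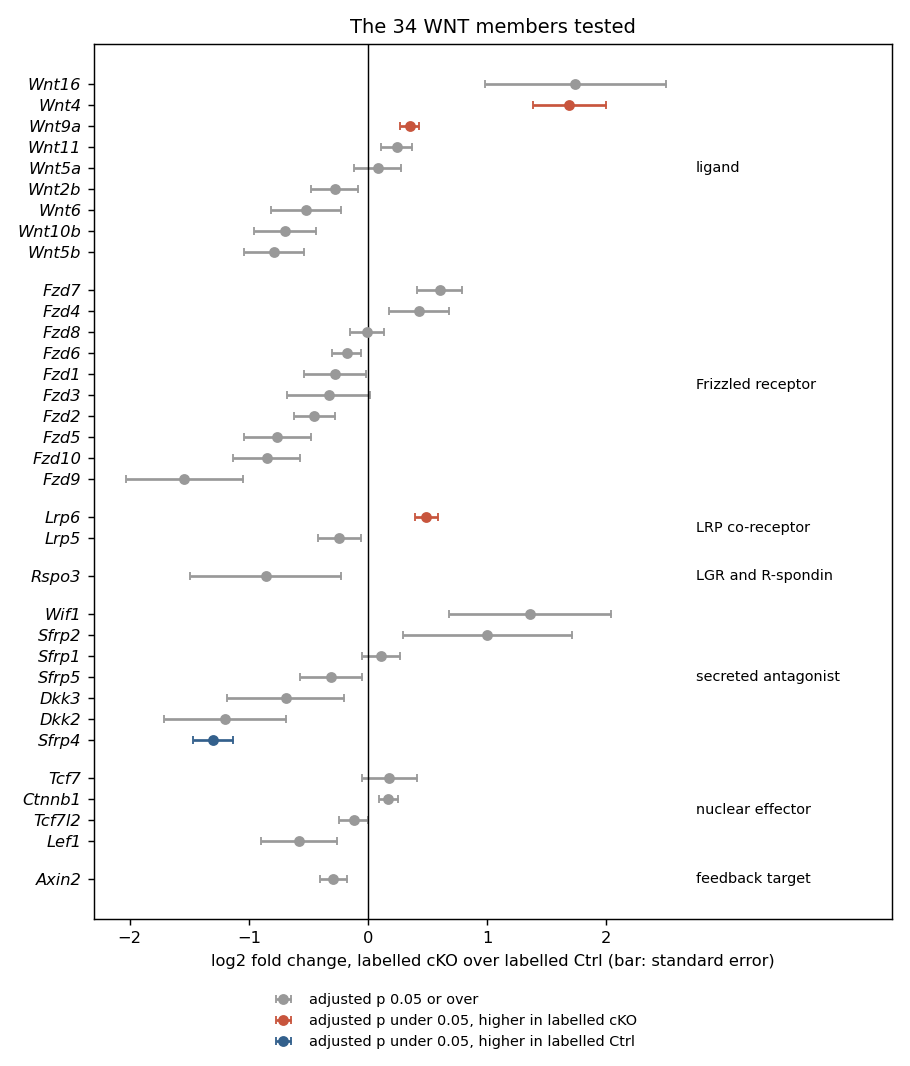
Fitted log2 fold changes (labelled cKO over labelled Ctrl, bars are the SE) of the 34 WNT genes tested, grouped by role. Genes with an adjusted p under 0.05 are coloured by direction, and Wnt16, Wif1 and Sfrp2 at the right have wide bars and did not pass.

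Among the Frizzled receptors, 10 of 10 were tested and 0 passed by edgeR's quasi-likelihood test, beside the 24.4% of all genes that did. DESeq2 called Fzd5, Fzd7 and Fzd10. An unadjusted edgeR p under 0.05 was found for 5 of the 10, and the share of all genes at that threshold was not counted. Of the 10 receptors, 8 had a log2 fold change below 0 and 2, Fzd7 and Fzd4, above it, where all genes tested had a median of -0.015. Fzd9, a receptor known from the neuromuscular junction, had the highest level per length of the family over the 6 libraries, a mean of 40.4 CPM per kb. It lies on chromosome 5 from 135248938 to 135251230, on the minus strand. In libraries labelled cKO alone Fzd7 was higher, at a mean of 22.6 CPM per kb against 20.7. Fzd9 stood at 157, 144 and 112 CPM in libraries labelled Ctrl and 35.6, 87.4 and 19.3 CPM in those labelled cKO. All 3 Ctrl libraries were above all 3 cKO libraries, but the latter spanned 4.54-fold. The log2 fold change was -1.54 ± 0.49 (SE, n = 3 per group, adjusted p = 0.0602, edgeR), and -2.35 with an adjusted p of 0.00504 without cKO 2. The family sum moved with Fzd9, which gave 55.1% of the mean sum of the 6 libraries, at means of 60.1 CPM per kb in Ctrl and 20.7 in cKO. The sum was 96.3, 90.7 and 80.2 CPM per kb in Ctrl and 50.7, 76.3 and 45.9 CPM per kb in cKO. Of the 4 listed markers of the neuromuscular junction 0 passed in edgeR, with 1 at an unadjusted p under 0.05 and 1 called by DESeq2, and their sum was 66.5 to 79.3 CPM in Ctrl and 57.5 to 70.6 CPM in cKO.

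Fzd7, the receptor of satellite cells for Wnt7a, went the other way. It stood at 55.6, 58.4 and 89.5 CPM in libraries labelled Ctrl and 93.0, 114 and 101 CPM in those labelled cKO, with no overlap (log2 fold change 0.60 ± 0.19, SE, n = 3 per group, adjusted p = 0.0565, edgeR). Without Ctrl 3, the highest library of its group, the adjusted p was 0.00556 and the log2 fold change 0.85. Of the 6 satellite cell markers 0 passed in edgeR, with 1 at an unadjusted p under 0.05 and 1 called by DESeq2, and they summed to 26.3 to 29.9 CPM in Ctrl and 26.8 to 33.6 CPM in cKO. Fzd10 was lower in each library labelled cKO, at 1.21, 2.28 and 1.18 CPM against 2.96, 2.80 and 2.65 CPM (log2 fold change -0.85, edgeR adjusted p = 0.0652). Fzd1, Fzd2, Fzd3, Fzd4, Fzd5, Fzd6 and Fzd8 overlapped, with log2 fold changes from -0.76 (Fzd5) to 0.43 (Fzd4). Fzd8, at -0.01, had no stable sign.

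The LRP co-receptors had similar levels per length, 5.15 CPM per kb for Lrp5 and 5.12 for Lrp6, and opposite fitted directions. Lrp6, on chromosome 6 from 134446476 to 134566965 (minus strand), stood at 61.9, 56.8 and 55.9 CPM in libraries labelled Ctrl and 91.7, 71.5 and 82.6 CPM in those labelled cKO. Each cKO library was above each Ctrl library, a 1.41-fold difference (log2 fold change 0.49 ± 0.10, SE, n = 3 per group, adjusted p = 0.0169, edgeR's quasi-likelihood test). The call was lost with total counts (log2 fold change 0.23, edgeR adjusted p = 0.0762) and without Ctrl 2, cKO 1 or cKO 3, with edgeR's adjusted p at 0.0578 to 0.0650. Lrp5 stood at 64.7, 57.1 and 40.9 CPM in Ctrl and 53.6, 42.8 and 41.5 CPM in cKO, and the groups overlapped (log2 fold change -0.24, edgeR adjusted p = 0.361). Whether the responses of Lrp5 and Lrp6 differ was not tested.

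Rspo3, the R-spondin of the set, was low and variable in both groups. It stood at 3.37, 2.92 and 0.93 CPM in libraries labelled Ctrl and 1.04, 2.44 and 0.522 CPM in those labelled cKO, which overlapped (log2 fold change -0.86 ± 0.63, SE, edgeR adjusted p = 0.348). Lgr5, one of its receptors, had at most 6 counts in any library.

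Of the secreted antagonists, 7 of 9 were tested and Sfrp4 alone passed. Sfrp4, a secreted Frizzled-related protein known from connective tissue, lies on chromosome 13 from 19623104 to 19632994, on the plus strand. It stood at 5.82, 6.39 and 8.23 CPM in libraries labelled Ctrl and 2.82, 2.60 and 2.88 CPM in those labelled cKO. Every Ctrl library was above every cKO library, and the cKO libraries spanned only 1.11-fold. The level was 2.46-fold higher in Ctrl (log2 fold change -1.30 ± 0.17, SE, n = 3 per group, adjusted p = 0.0037, edgeR's quasi-likelihood test). It kept its call in 13 of 13 alternative settings, with log2 fold changes of -1.55 to -1.14 and adjusted p values up to 0.0183.

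Some markers of connective tissue cells were also higher with the Ctrl label. Of the 9 markers of fibro-adipogenic progenitors, the connective tissue precursors of muscle, 5 passed as higher with the Ctrl label, namely Ly6a, Lum, Dpt, Mfap5 and Pi16, and 0 with the cKO label, beside the 11.8% of all genes called higher with the Ctrl label. The other 4 had log2 fold changes of -0.31 (Cd34), -0.18 (Pdgfra), 0.20 (Dcn) and 0.29 (Smoc2). The summed level of all 9 was 947 to 971 CPM in Ctrl and 772 to 964 CPM in cKO, which overlapped. Also, 3 of 5 immune markers tested and 2 of 5 markers of pericytes and smooth muscle were higher in Ctrl, with sums of 48.4 to 61.4 against 25.3 to 39.6 CPM and of 412 to 427 against 329 to 354 CPM. No marker of these lists was at 0 in every library, and their part in the Sfrp4 result was not tested.

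The other antagonists overlapped between groups. Dkk2, which acts on LRP co-receptors, had the highest mean level per length among them over the 6 libraries, 6.64 CPM per kb. In libraries labelled cKO alone Sfrp5 was higher, at a mean of 4.38 CPM per kb against 4.03. Dkk2 stood at 48.3, 37.6 and 16.8 CPM in libraries labelled Ctrl and 16.8, 21.8 and 6.20 CPM in those labelled cKO (log2 fold change -1.20 ± 0.51, SE, edgeR adjusted p = 0.127). Sfrp5, the SFRP gene with the highest level per length at 4.90 CPM per kb, stood at 10.4, 9.72 and 10.8 CPM and at 11.7, 8.18 and 5.13 CPM in the same order, with an edgeR adjusted p of 0.420. Wif1, which binds WNT ligands directly, stood at 1.61, 1.23 and 1.37 CPM in Ctrl and 0.875, 7.55 and 2.36 CPM in cKO. Its log2 fold change of 1.36 ± 0.68 (SE, edgeR adjusted p = 0.187) was 0.21 without cKO 2. Sfrp1, Sfrp2 and Dkk3 had log2 fold changes of 0.11, 1.00 and -0.69 and edgeR adjusted p values of 0.651, 0.335 and 0.333. Sfrp2 was at 2.17 (edgeR adjusted p = 0.0455) without Ctrl 3, and Dkk3 at -1.47 (edgeR adjusted p = 0.0199) without cKO 2. Summed over the family, antagonist levels were 26.7, 23.6 and 22.4 CPM per kb in Ctrl and 16.4, 23.1 and 9.06 CPM per kb in cKO, so the groups overlapped.

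Ctnnb1 and Axin2, of the β-catenin branch, did not pass in edgeR or DESeq2. Ctnnb1, β-catenin itself, had the highest mean level per length of all 47 genes over the 6 libraries, 57.3 CPM per kb. In libraries labelled Ctrl alone Fzd9 was higher, at a mean of 60.1 CPM per kb against 53.9. Ctnnb1 stood at 267, 278 and 294 CPM in libraries labelled Ctrl and 333, 306 and 307 CPM in those labelled cKO, without overlap but with a log2 fold change of 0.17 ± 0.08 (SE, edgeR adjusted p = 0.172). Its sign turned with total counts. Axin2, the feedback target, pointed the other way at 11.8, 13.3 and 12.7 CPM in Ctrl against 9.39, 11.6 and 9.88 CPM in cKO. Each cKO library was below the lowest Ctrl library, cKO 2 only just, with a log2 fold change of -0.29 ± 0.11 (SE, n = 3 per group, adjusted p = 0.0984, edgeR), which was -0.40 with an adjusted p of 0.0348 without cKO 2 and -0.54 with an adjusted p of 0.0274 with total counts, a scaling that moved the median of all genes to -0.269. The exact permutation test of single genes cannot go below p = 0.1 with 3 libraries against 3, and Axin2 and Ctnnb1 were both at that limit.

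The DNA-binding partners of β-catenin were present at unequal levels and gave 0 calls by edgeR, with 0 of the 3 at an unadjusted p under 0.05 and 0 called by DESeq2. Tcf7l2 had 0.91 CPM per kb, Tcf7 0.263 and Lef1 0.0314, the lowest of the 34 genes tested. Lef1 rested on 7 to 16 counts per library and was higher in all libraries labelled Ctrl (log2 fold change -0.58 ± 0.32, SE, edgeR adjusted p = 0.219). Tcf7 and Tcf7l2 overlapped between groups, with log2 fold changes of 0.18 and -0.12.

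**Figure D3:**
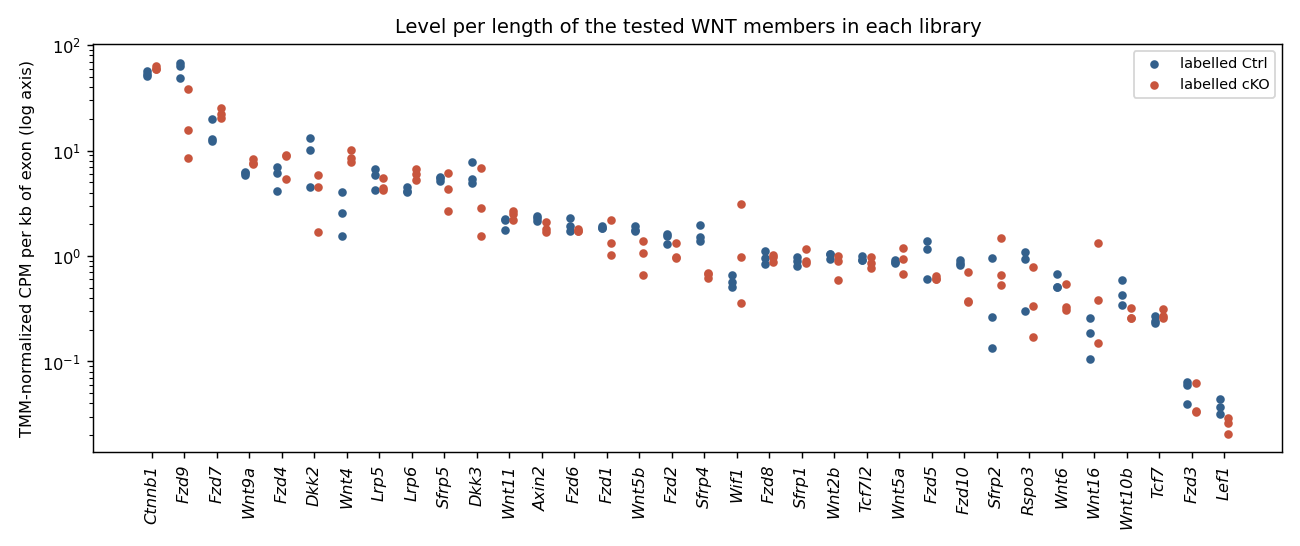
Level per length (TMM-normalized CPM per kb of exon, log axis) of the 34 WNT genes tested, ordered by their mean, with 1 point per library. Ctnnb1, Fzd9 and Fzd7 stand at the left, a gap separates Fzd7 from Wnt9a, and Fzd3 and Lef1 lie apart at the right.

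The order of levels per length ran over more than 3 orders of magnitude on the scale of mean CPM per kb. Ctnnb1 (57.3), Fzd9 (40.4) and Fzd7 (18.8) led over the 6 libraries. The library ranges of Ctnnb1 and Fzd9 overlapped, as did those of Fzd9 and Fzd7. In libraries labelled Ctrl alone Fzd9 (60.1) was above Ctnnb1 (53.9), and in those labelled cKO Fzd7 (22.6) was above Fzd9 (20.7). The library ranges of Fzd7, 12.3 to 25.1, and of the next gene Wnt9a, 5.93 to 8.31, did not overlap. From Wnt9a down to Tcf7 each gene's library range overlapped that of the next, so no neighbours among these 29 were separated beyond their spread. Below Tcf7 (range 0.233 to 0.312) came Fzd3 (0.0331 to 0.0641) and Lef1 (0.0207 to 0.0439). In 10 of the 47 genes some exon bases are shared with a gene on the other strand in GENCODE M21, from 3.15% in Fzd6 to 17.8% in Fzd5, and the use of strand in counting is not given in the sources used here, so reads there cannot be assigned with certainty. Axin2 (3.80%), Ctnnb1 (14.6%), Lef1 (13.7%) and Rspo3 (13.1%) are among them, and Wnt4, Wnt9a, Lrp6 and Sfrp4 are not.

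Among the 34 WNT genes tested, 6 spanned more than 3-fold among the libraries labelled cKO, a grouping made after their values were seen. They were Dkk2, Dkk3, Fzd9, Rspo3, Wif1 and Wnt16, and all 6 were highest in cKO 2. Of the genes under the filter, Wnt9b also spanned more than 3-fold, on 1, 4 and 6 counts, and was highest in cKO 3. How many of all genes span as widely or peak in cKO 2 was not counted. Neither trait can therefore be called particular to WNT genes. The slow-fibre markers were also highest in cKO 2, with sums of 2000, 3872 and 446 CPM in cKO 1, 2 and 3, and Dkk2, Dkk3, Fzd9, Rspo3 and Wnt16 had this order. The adipocyte markers had it too, with sums of 46.4, 49.6 and 16.2 CPM, as did the endothelium markers, at 360, 389 and 350 CPM. In Ctrl 1, 2 and 3 the slow-fibre sums were 14593, 8654 and 8478 CPM, an order that Dkk2, Fzd9, Rspo3 and Wnt16 shared and Dkk3 reversed, at 16.5, 18.1 and 26.2 CPM. The adipocyte sum there was highest in Ctrl 3, at 45.8 CPM, and did not have the slow-fibre order. Between the groups Wnt16 went against the slow-fibre markers, with means of 0.803 CPM in Ctrl and 2.70 CPM in cKO. The 6 tenocyte markers, of tendon cells, summed to 163, 714 and 385 CPM, and Wif1 had that order. Of these markers, 0 passed in edgeR, had an unadjusted p under 0.05 or were called by DESeq2. The order was shared by the sums of fibro-adipogenic progenitor (772, 964 and 923 CPM), immune (25.3, 39.6 and 32.3 CPM) and satellite cell markers (26.8, 33.6 and 29.4 CPM). In Ctrl 1, 2 and 3 the tenocyte sums were 333, 344 and 361 CPM and Wif1 was at 1.61, 1.23 and 1.37 CPM, which did not share the order. The part of any of these cell types in these values was not tested.

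**Figure D4:**
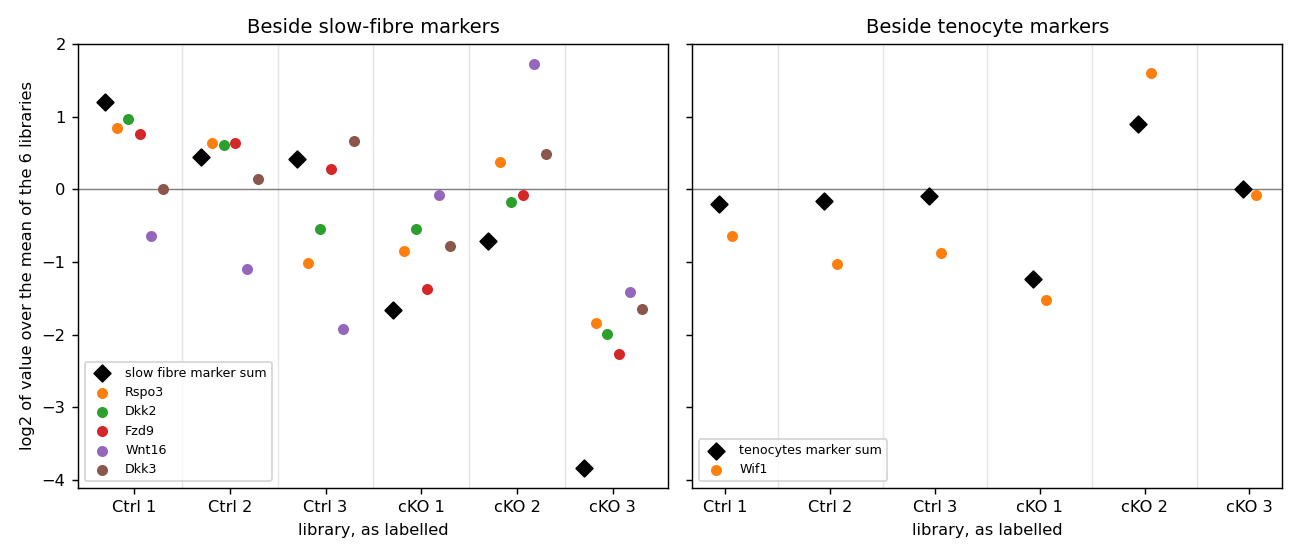
Level in each library as log2 of its value over the mean of the 6 libraries, for the summed slow-fibre markers with 5 WNT genes (left) and the summed tenocyte markers with Wif1 (right). Diamonds are marker sums and circles WNT genes. The WNT genes shown were picked for spanning more than 3-fold among libraries labelled cKO and for having the order of the marker sum there. Their shared order and their peak in cKO 2 therefore follow from that choice.

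Other genes of the pathway were taken from a list of 70, of which 62 were tested and 12, or 19.4%, passed. The Ctrl label was the higher one for 5 and the cKO label for 7, where 11.8% and 12.6% of all genes were called in those directions and 24.4% in either. DESeq2 called 9 and 8, and total counts gave 16 and 2. Leaving out 1 library gave 2 to 10 and 3 to 7, the extremes being 2 without Ctrl 2 or cKO 1 and 10 without cKO 2, and 3 without cKO 3. The shares of all genes were not counted for these settings. Of the secretion genes, Wls, the carrier of WNT proteins to the membrane, was higher in Ctrl (log2 fold change -0.54 ± 0.14, SE, n = 3 per group, adjusted p = 0.0353, edgeR's quasi-likelihood test). Porcn, which attaches the lipid that WNT proteins need, was at 0.21 and did not pass.

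Among the other receptors, Ror2 had the largest difference. Ror2, a receptor for Wnt5a outside the β-catenin branch, stood at 3.24, 9.29 and 3.99 CPM in libraries labelled Ctrl and 0.875, 1.01 and 0.886 CPM in those labelled cKO. Every Ctrl library was above every cKO library, and Ctrl 2 stood apart within its group. The log2 fold change was -2.57 ± 0.43 (SE, n = 3 per group, adjusted p = 0.00778, edgeR's quasi-likelihood test), and -1.96 with an adjusted p of 0.0108 without Ctrl 2. Lrp4, the agrin receptor of the neuromuscular junction, was also higher in Ctrl (log2 fold change -0.56). Ryk, another WNT receptor (0.48), and Lgr4, an R-spondin receptor (0.30), were higher in cKO, Lgr4 keeping its call in 4 of 13 alternatives, 1 of them a fit that left out a library, Ctrl 3. Wls and Lrp4 lost their call without Ctrl 1, Ctrl 2, cKO 1 or cKO 3, and Ryk without cKO 3 and with total counts (log2 fold change 0.23, edgeR adjusted p = 0.175).

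In the cytoplasm, 5 of 18 genes (27.8%) passed, beside the 24.4% of all genes. Dvl3, a Dishevelled protein that relays the signal from Frizzled, was higher in libraries labelled Ctrl (log2 fold change -0.47), while Dvl1 and Dvl2 did not pass. Apc (0.44), Csnk1e (0.38) and Gsk3a (0.24), which act on β-catenin, and Nkd2 (1.26 ± 0.26, SE), which binds Dishevelled, were higher in cKO. Nkd2 stood at 0.842, 1.66 and 1.53 CPM in Ctrl and 3.13, 3.04 and 3.52 CPM in cKO (adjusted p = 0.0159, edgeR), and its edgeR adjusted p was 0.0591 without cKO 3. Apc lost its call with total counts (log2 fold change 0.18, edgeR adjusted p = 0.105). Csnk1e and Gsk3a lost their call in 7 and 8 of 13 alternatives, and among the fits that left out a library both were called in 1, that without cKO 2.

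In the planar polarity branch 1 of 10 genes passed. Celsr2, an atypical cadherin, stood at 7.33, 8.40 and 8.86 CPM in Ctrl and 19.9, 17.0 and 20.0 CPM in cKO, tight in both groups (log2 fold change 1.21 ± 0.11, SE, n = 3 per group, adjusted p = 0.00173, edgeR's quasi-likelihood test). Of the usual targets of the pathway, 1 of 7 (14.3%) passed, also beside the 24.4% of all genes. Bambi, which dampens TGF-β and BMP signalling, stood at 2.66, 3.62 and 3.99 CPM in Ctrl and 0.987, 1.51 and 2.02 CPM in cKO (log2 fold change -1.17 ± 0.29, SE, adjusted p = 0.0267, edgeR). It lost its call without Ctrl 2, Ctrl 3, cKO 1 or cKO 2, with edgeR's adjusted p at 0.0510 to 0.0788. Of these 7 targets, 6 had a log2 fold change below 0, with a median of -0.64, where all genes tested had a median of -0.015. Whether the targets differed as a set was not tested. Ccnd1 and Myc were at -0.67 and -0.52, and both overlapped between groups.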

How the data were processed

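Bulk RNA-Seq libraries of GP muscle from 3 mice labelled Ctrl and 3 labelled cKO were used. Per the labels and methods, the authors used FastQC 0.11.8 for quality, Trimmomatic 0.39 for trimming, HISAT2 2.1.0 for alignment to mm10 and featureCounts 1.6.2 for counting per gene. The deposited values are raw counts per gene without normalization. Annotation and strand setting are not given in the sources used here. The libraries are from separate mice.

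Counts of all genes were fitted in R 4.3.3 with edgeR 4.0.16 (TMM factors, filterByExpr, glmQLFit, glmQLFTest), adjusted by Benjamini-Hochberg over 14180 genes. The threshold for a call was an adjusted p of 0.05. SE was derived from the F statistic. Alternatives were DESeq2 1.42.0 (Wald test, size factors), scaling by total counts, a minimum of 10 counts per library, no filter, a robust fit, the mouse number as a block and leaving out each library. Exact permutation tests were two-sided. The procedure was tested on simulated data. Exon lengths came from GENCODE M21 (GRCm38), in which 23379 of 24421 symbols and 47 of 47 WNT genes matched. Named with values per library were genes with an adjusted p under 0.05 and the highest per length in each role, and, chosen after their values were seen, some that did not overlap or spanned widely. Of the other pathway genes, those past a fold change of 2 and at most 3 more per role were named, with further ones chosen after seeing values. The WNT genes, pathway and marker lists were chosen with earlier results of these data known. The E-box search was added after the TCF/LEF core was chosen. Single-nucleus data were not used here.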

Additional observations from a re-analysis of the deposited data

How the results depend on the processing

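Sfrp4, Wnt4, Ror2, Celsr2, Dvl3 and Net39 kept their direction and call in 13 of 13 alternatives. Of the 4 WNT genes called, Wnt9a lost its call in 6 and Lrp6 in 4. Total counts gave 9 WNT genes higher in libraries labelled Ctrl and 1 higher in those labelled cKO (5 of the former with a fold change over 2) and 16 and 2 other pathway genes. With DESeq2's Wald test these were 4 and 5 WNT genes, 2 of the latter with a fold change over 2, and 9 other pathway genes higher in Ctrl. Leaving out 1 library gave 1 to 7 WNT genes higher in Ctrl (1 to 4 with a fold change over 2) and 1 to 5 higher in cKO (1 to 2), and 2 to 10 and 3 to 7 other pathway genes. The causes were not tested, beyond the shift of all genes to -0.269 with total counts. The shares of all genes called in these settings were not counted.

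Deviations from the group means correlated at 0.085, -0.242 and -0.01 for same-numbered mice and at -0.228 to 0.218 for differently numbered mice. With 3 mice per group this cannot show whether the numbers pair mice, and they were treated as unpaired. With the mouse number as a replicate block, 3 WNT genes, Dkk2, Fzd9 and Sfrp4, were called higher in Ctrl (3 with a fold change over 2). In cKO 2, Lrp6 and Wnt4, were called higher, without Wnt9a, and 4 other pathway genes were called higher there.

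Signs turned for genes near 0. With total counts the log2 fold changes were -0.075 (Tcf7), -0.170 (Wnt5a), -0.014 (Wnt11), -0.150 (Sfrp1), -0.084 (Ctnnb1) and -0.011 (Gsk3a). Fzd8 was at 0.004 with DESeq2's size factors, 0.003 with no filter, and leaving out 1 library gave -0.097 to 0.10 for Fzd8 (0.035 without cKO 1), -0.160 to 0.25 for Wnt5a (the first without cKO 2) and -0.039 to 0.19 for Sfrp1 (the first without cKO 1). Depth limits what can be said of Lef1, with 7 to 16 counts per library, and of the 13 genes under the filter, with at most 23.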
